A study of Mus musculus with 24 samples.

Results

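The 10 smooth muscle contractile genes Acta2, Tagln, Myh11, Cnn1, Smtn, Myl9, Mylk, Lmod1, Cald1 and Tpm4 were followed in the left ventricle of mice. They were chosen by gene symbol, with earlier results of these data known, and all 10 were found among the 14912 genes of the table. RNA of the left ventricle was measured in 12 hypertensive-LVH libraries, from mice that received ANG II for 7 days at a dose of 1500 ng/kg/min, and in 12 control libraries, from mice that received saline in the same way. The study's own groups were larger, and its criteria are applied here to these 24 libraries. All mice were male wild-type C57BL/6J, the agent was delivered by a minipump under the skin, and LVH stands for left ventricular hypertrophy. The age of the mice and whether the libraries came from pooled animals were not given in the sources used here, so p-values measure the spread between libraries.

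Smooth muscle cells of the vessel wall contract when calcium and calmodulin activate myosin light chain kinase, which phosphorylates the regulatory light chain and lets smooth muscle myosin pull on actin filaments. Calponin, caldesmon, transgelin and tropomyosin bind these filaments and set their stability and their access to myosin. In the heart, the genes of this apparatus are used by smooth muscle cells of coronary arteries, in part by pericytes, and by fibroblasts that turn into myofibroblasts. Several of them are also used elsewhere, and Tpm4 and the non-muscle forms of Cald1 and Mylk are made by many cell types. A tissue library holds all of these cells together, so that more cells of a type and more RNA per cell cannot be told apart.

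The deposited values are given as FPKM, fragment numbers scaled for transcript length and for the fragments mapped in the library, and they had been adjusted further as described below, so the levels that follow are those of the deposited values and their order is a description. In the control group Acta2, the smooth muscle alpha-actin, had the highest level of the 10 genes with 102 ± 24.1 FPKM (SD, n = 12). Smtn followed with 59.8 ± 7.13 FPKM, Tpm4 with 54.0 ± 8.47 FPKM and Myl9 with 38.9 ± 12.6 FPKM. These levels overlapped between neighbours, since the highest Smtn library reached 74.3 FPKM and the lowest Acta2 library 60.1 FPKM. Cald1 was at 27.9 ± 4.69 FPKM and Tagln at 17.5 ± 11.0 FPKM. Myh11, the smooth muscle myosin heavy chain and the most restricted marker of the lineage, was at 11.0 ± 4.02 FPKM. Mylk was at 8.14 ± 1.47 FPKM, Cnn1 at 3.41 ± 2.28 FPKM and Lmod1 at 1.72 ± 0.787 FPKM. As a check of the tissue label, 10 ventricular cardiomyocyte markers summed to between 56310 and 75970 FPKM in the control libraries.

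Many smooth muscle genes carry a CArG box in their promoter, the site bound by serum response factor with its partner myocardin, and some carry an MCAT element, the site of TEAD factors. The 250 bases before the transcription start (RefSeq, GRCm38.p6) were at hand for 8 of the 10 genes, with 9 promoters, and not for Tagln and Myh11. A CArG box was found in 1 of the 9 promoters, that of Myl9, against 1.47% of 32851 mouse promoters of the same length. When 1 G or C was allowed among the middle 6 bases, 2 of the 9 held a match, Myl9 and Acta2, against 8.59% of all promoters. The MCAT element, searched as CATTCC on both strands, was in 5 of the 9 promoters (Acta2, one of the Cald1 promoters, Lmod1, Mylk and Smtn) against 12.6% of all. No match of one motif overlapped a match of the other. A match is a run of letters and not a measured binding site. The stretches with matches, 1 G or C allowed, are shown because the most abundant gene of the set and the gene of its myosin light chain both hold them. No match had the same letters in both genes. Each match is in capitals and each sequence is read 5′ to 3′ along the gene.
Acta2, chr19:34255438-34255467, minus strand: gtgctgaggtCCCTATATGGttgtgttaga
Acta2, chr19:34255388-34255417, minus strand: cgtctttgctCCTTGTTTGGgaagcgagtg
Myl9, chr2:156775214-156775419, plus strand: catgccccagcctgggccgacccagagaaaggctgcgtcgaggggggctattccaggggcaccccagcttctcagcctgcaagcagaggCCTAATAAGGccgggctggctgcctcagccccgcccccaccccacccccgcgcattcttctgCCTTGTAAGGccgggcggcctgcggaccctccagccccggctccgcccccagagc
The matches of Acta2 began 84 and 34 bases before its RefSeq start, and those of Myl9 161 and 99 bases before its start. GENCODE vM21 begins a transcript of Acta2 further upstream, and both Acta2 stretches lie in the first exon of that transcript. The Myl9 stretch ends where the first GENCODE exon of the gene begins.

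The first question was which contractile genes differed between hypertensive-LVH and control ventricles. Of the 10 genes, 3 rose by both criteria of the study, an adjusted P under 0.05 and a log2 fold change over 0.5 in size. These were Tagln, Cnn1 and Tpm4, and 4.52% of the 14026 genes tested passed both criteria in the higher direction. Cald1 passed the adjusted P alone, so that 4 of 10 rose by that measure against 20.9% of all genes tested. None of the 10 genes fell, against 12.6% of all genes tested. The fold change was above 0 for 9 of the 10 genes, as it was for 63.8% of all genes tested, and its median was 0.28 on the log2 scale against 0.05 over all genes. Acta2, Myh11, Smtn, Myl9, Mylk and Lmod1 did not pass. The fits were made with limma on log2(FPKM + 1), with Benjamini-Hochberg adjustment over all genes tested.

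**Figure D1:**
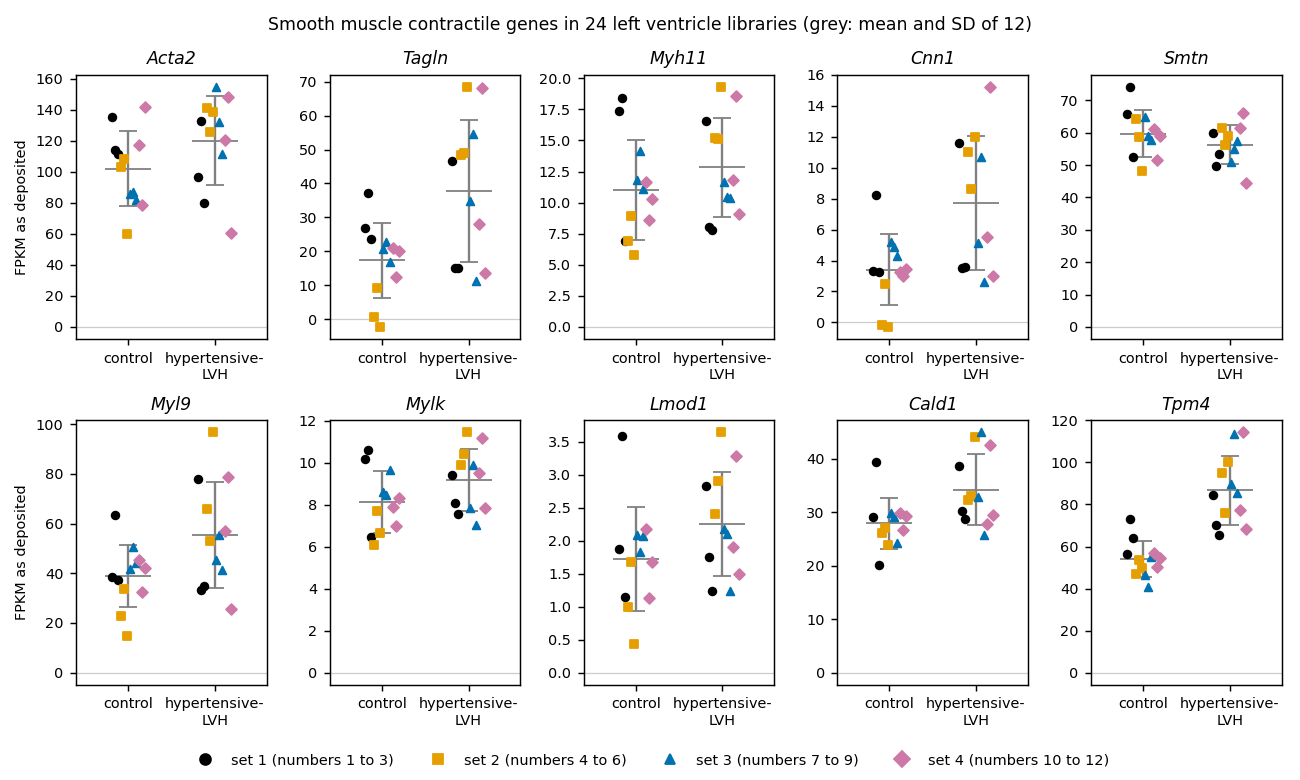
Deposited FPKM of each gene (vertical axis, linear) in the 12 control and 12 hypertensive-LVH libraries, with colour and symbol for the 4 sets of libraries, a grey line for the group mean and bars for the SD. The groups overlap for all 10 genes, and for Tpm4 the overlap is smallest, with 9 of 12 hypertensive-LVH libraries above the highest control.

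Among the proteins that bind along the actin filament, Tpm4 had the smallest error relative to its change. Tropomyosin 4 (chr8:72134975-72153142, plus strand, GRCm38) is a low-molecular-weight tropomyosin of the cytoskeleton. Its FPKM ran from 40.7 over a median of 54.1 to 73.0 in the control libraries and from 65.5 over 85.2 to 114 in hypertensive-LVH. All 12 hypertensive-LVH libraries lay above the control median and 9 above the highest control, while the rest overlapped with the upper controls. The log2 fold change was 0.67 ± 0.09 (SE, limma, adjusted p = 1.51e-05). It passed the threshold in each of the 24 fits without 1 library and in each of the 4 fits without 1 set, with log2 fold changes between 0.55 and 0.82. Part of the transcript sequence, 9.22% of its stretches of 100 bases, is also found in other annotated genes.

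Cnn1, or calponin 1 (chr9:22099216-22109630, plus strand), is an actin-binding inhibitor of the myosin ATPase that is nearly restricted to smooth muscle. Control libraries ran from -0.287 over a median of 3.30 to 8.26 FPKM, with 2 of them below 0, and hypertensive-LVH libraries from 2.62 over 7.07 to 15.2 FPKM. Of the hypertensive-LVH libraries 10 of 12 lay above the control median and 6 above the highest control. The log2 fold change was 1.02 ± 0.33 (SE, limma, adjusted p = 0.0210), and each fit without 1 library kept it under the threshold.

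Tagln (chr9:45929619-45936058, minus strand) encodes transgelin, also called SM22 alpha, an actin-bundling protein that serves as an early smooth muscle marker. Its control values ran from -2.20 over a median of 20.4 to 37.3 FPKM and its hypertensive-LVH values from 11.4 over 40.7 to 68.5 FPKM. The hypertensive-LVH libraries spread widely, with 6 above every control and 4 below the control median. The log2 fold change was 1.32 ± 0.51 (SE, limma, adjusted p = 0.0459). This call was close to the threshold and was lost when any of 13 single libraries was left out, numbers 1, 4, 5, 6, 7, 8, 10 and 11 of hypertensive-LVH and 4, 5, 6, 9 and 11 of control, with an adjusted p of up to 0.0825 and a log2 fold change down to 0.98 in limma. Of the stretches of 100 bases of its transcripts, 48.3% are shared with genes on the opposite strand, almost all with the antisense gene Gm48529, and the strand setting of the counting was not given in the sources used here, so reads of either strand cannot be told apart. The neighbour Pcsk7, named for this overlap, whose end overlaps that of Tagln, had a log2 fold change of 0.05 ± 0.04 (SE, limma, adjusted p = 0.419).

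Cald1 (chr6:34598500-34775473, plus strand) encodes caldesmon, which holds actin filaments in a state that myosin cannot use until calcium rises. Control libraries ran from 20.1 over a median of 28.1 to 39.4 FPKM and hypertensive-LVH libraries from 25.8 over 32.6 to 44.96 FPKM. The groups overlapped broadly, although 10 of 12 hypertensive-LVH libraries exceeded the control median. The log2 fold change was 0.28 ± 0.10 (SE, limma, adjusted p = 0.0274). The adjusted p moved to between 0.0504 and 0.0539 without hypertensive-LVH library 6, 8 or 11 or control library 3, where the log2 fold change was 0.24 to 0.25. The table holds 1 value per gene, so that smooth muscle and non-muscle caldesmon were counted together.

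The genes of the motor and its switch did not pass the test. Myl9 (chr2:156775420-156781658, plus strand), the regulatory light chain that the kinase phosphorylates, ran from 14.8 over a median of 40.1 to 63.5 FPKM in control and from 25.7 over 54.3 to 96.7 FPKM in hypertensive-LVH. Its log2 fold change was 0.48 ± 0.21 (SE, limma, adjusted p = 0.0756), and passed without hypertensive-LVH library 12 (adjusted p = 0.0296) or control library 2 (adjusted p = 0.0387), at log2 fold changes of 0.57 and 0.55. Mylk, the light chain kinase, was at 9.18 ± 1.48 FPKM against 8.14 ± 1.47 FPKM in control (SD, n = 12 each), a log2 fold change of 0.16 ± 0.09 (SE, limma, adjusted p = 0.165). Myh11 was at 12.8 ± 4.01 FPKM against 11.0 ± 4.02 FPKM in control (SD, n = 12 each). Its log2 fold change of 0.22 ± 0.17 (SE, limma, adjusted p = 0.323) was about as large as its error, and 5 of 12 hypertensive-LVH libraries lay below the control median.

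The actin itself and the proteins that build its filaments did not pass the test either. Acta2 (chr19:34241090-34255590, minus strand) ran from 60.1 over a median of 106 to 142 FPKM in control and from 60.7 over 129 to 155 FPKM in hypertensive-LVH. The 2 ranges were nearly the same, 9 of 12 hypertensive-LVH libraries lay above the control median, and the log2 fold change was 0.23 ± 0.14 (SE, limma, adjusted p = 0.223). None of the 100-base stretches of its transcripts occurs in another annotated gene, the far more abundant striated muscle actins included. Lmod1, a leiomodin that starts new filaments, was at 2.25 ± 0.785 FPKM against 1.72 ± 0.787 FPKM in control (SD, n = 12 each), with a log2 fold change of 0.27 ± 0.15 (SE, limma, adjusted p = 0.159). Smtn, or smoothelin, a filament-associated protein of contractile smooth muscle, was the gene with the lower mean in hypertensive-LVH, at 56.3 ± 5.99 FPKM against 59.8 ± 7.13 FPKM in control (SD, n = 12 each). The log2 fold change was -0.08 ± 0.06 (SE, limma, adjusted p = 0.327).

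The next question was whether these differences held in all parts of the experiment. The deposited values were not plain FPKM: 2741 were below 0. Exact ties grouped the libraries by number, 1 to 3, 4 to 6, 7 to 9 and 10 to 12 in both groups. These were taken as 4 sets of 3 hypertensive-LVH and 3 control libraries. Apart from 278 genes in whole hundredths, the values were read as FPKM shifted and scaled gene by gene in these sets. What the sets stand for was not given in the sources used here. For all 10 genes the spacing of the values gave back the differences between libraries of a set as they were before this step, while the level of one set against another stayed unknown. These differences are given in FPKM, or as a percentage of the gene's control mean. That mean is of the deposited values over all control libraries. The percentage is thus a scaled difference and not a change from the control level of its set. The differences were solved with 1 group difference kept for all sets, and under this model the adjustment had used the group labels. For Myl9 in set 1 the mean difference was 2.23 FPKM as deposited and -5.98 FPKM before the adjustment. A shift and scale shared by both groups would have kept the sign. The limma p-values on deposited values do not account for this.

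The counts of the contractile genes by set are given as a description, since the test of a difference between sets passed for 1 of the 10 genes, against 7.49% of all genes tested. In set 1, 2 of the 10 genes had a higher hypertensive-LVH mean and 8 a lower one, with a median of -19.0% of the control mean, and for none did the 3 libraries of one group all exceed those of the other. In set 2 all 10 were higher, for 9 of them all 3 hypertensive-LVH libraries exceeded all 3 controls, and the median was 81.0%. In set 3, 7 genes were higher, 4 of them in all 3 libraries, and the median was 29.9%. There Smtn was the exception, with all 3 hypertensive-LVH libraries below all 3 controls and a difference of -6.06 ± 1.63 FPKM (SE). In set 4, 9 genes were higher, 2 of them in all 3 libraries, with a median of 28.0%.

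**Figure D2:**
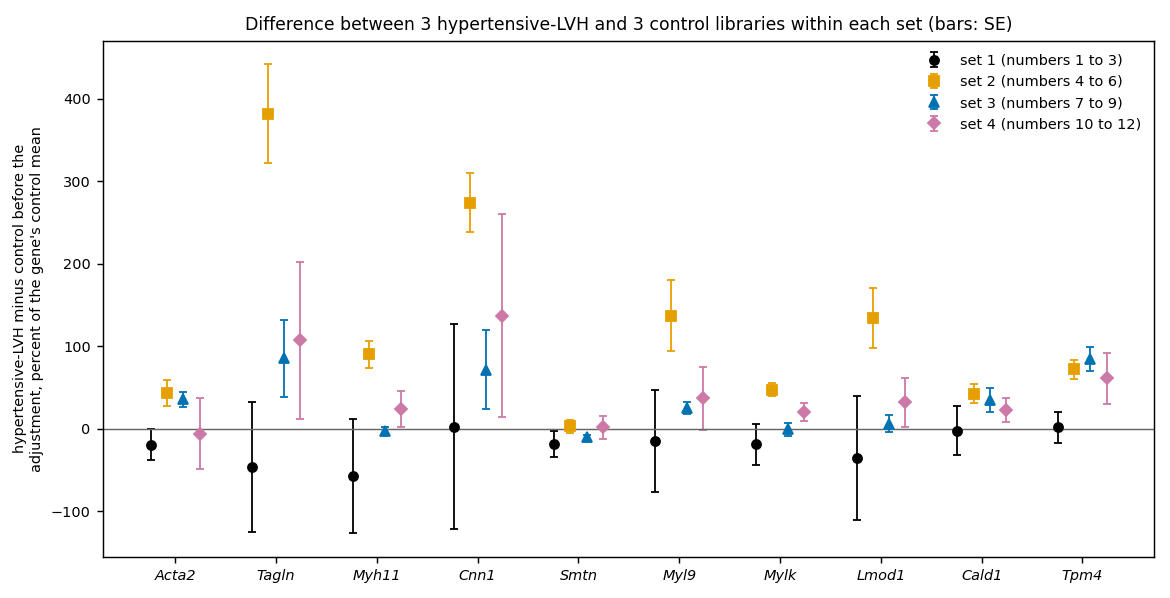
Difference between the 3 hypertensive-LVH and the 3 control libraries of each set before the adjustment, for the 10 genes and 4 sets. The vertical axis is a percentage of the gene's mean deposited control value, and bars show the SE. Set 2 lies highest for 9 of the 10 genes, at 382% for Tagln and 274% for Cnn1, and for Tpm4 sets 2 to 4 lie between 60.9% and 84.1%.

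Tpm4 and Cnn1 had a higher hypertensive-LVH mean in all 4 sets. For Tpm4 the difference was 0.837 ± 10.3 FPKM in set 1, 38.9 ± 6.34 in set 2, 45.5 ± 7.81 in set 3 and 32.9 ± 16.7 in set 4 (SE of 3 against 3 libraries). All 3 hypertensive-LVH libraries exceeded the controls in sets 2 to 4, and set 1 showed no difference beyond its error. For Cnn1 the difference was 0.08 ± 4.24 FPKM in set 1, 9.35 ± 1.21 in set 2, 2.44 ± 1.64 in set 3 and 4.67 ± 4.18 in set 4, so that set 2 alone exceeded 2 SE. Cald1 gave -0.66 ± 8.26, 11.9 ± 3.06, 9.66 ± 3.90 and 6.26 ± 4.06 FPKM in sets 1 to 4, with the 3 hypertensive-LVH libraries above the controls in each of the last 3.

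Tagln was the gene whose group difference varied with the set in the test of that variation. Its deposited values in set 2 were 48.3, 49.0 and 68.5 FPKM in hypertensive-LVH and 0.675, 9.36 and -2.20 FPKM in control. In set 1 they were 46.6, 15.3 and 15.2 FPKM in hypertensive-LVH against 26.9, 37.3 and 23.6 FPKM in control. The groups were far apart in set 2 and overlapped in set 1. Before the adjustment the difference was -8.12 ± 13.7 FPKM in set 1, 66.7 ± 10.4 in set 2, 14.9 ± 8.20 in set 3 and 18.7 ± 16.6 in set 4. The group by set interaction had an adjusted p of 0.0131 for Tagln in limma. Of the other 9 genes Cnn1 came closest (adjusted p = 0.0512 in limma), and passed when 0.1 was added in place of 1 (adjusted p = 0.0275) or when genes with a mean under 1 FPKM were left out (adjusted p = 0.0469).

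An exact permutation test that exchanged labels within the sets (160000 relabelings, two-sided, on log2(FPKM + 1)) was run for each of the 10 genes, without correction over them. It gave p = 5e-05 for Tpm4, 0.0134 for Cnn1, 0.0181 for Cald1 and 0.0244 for Tagln in this exact test. The p-values of the other 6 genes ranged from 0.0559 for Myl9 to 0.271 for Myh11 in the same exact test. On the deposited FPKM, not logged, Myl9 passed as well (exact permutation p = 0.0435). With the values before the adjustment the exact permutation test gave 3.13e-04 for Tpm4, 0.0194 for Cnn1, 0.0195 for Cald1 and 0.0157 for Tagln, and 0.0639 to 0.537 for the others. Under the solved model the adjustment had used the group labels, so labels were not freely exchangeable on the deposited values, logged or not. The exact p-values on deposited values are therefore a description.

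Leaving out set 2 ended 3 of the 4 calls, in a fit in which fewer of all genes were called as well. Without its 6 libraries Tpm4 alone passed, while the log2 fold change was 0.29 ± 0.31 for Tagln (SE, limma, adjusted p = 0.537), 0.39 ± 0.27 for Cnn1 (adjusted p = 0.322) and 0.21 ± 0.12 for Cald1 (adjusted p = 0.207), all in limma. Myh11 changed its sign, to -0.07 ± 0.18 (SE, limma, adjusted p = 0.811). Without set 4 Tpm4 was again the gene that passed, and Cnn1 (adjusted p = 0.0582), Cald1 (0.0551) and Tagln (0.0856) missed the threshold in limma. Without set 3 Tpm4 and Cnn1 passed. In the fit without set 1, 5 genes passed the adjusted P, Myl9 (adjusted p = 0.0456) among them, and 4 of these passed both criteria. Over all genes tested, 4697 of 14026 passed the adjusted P in the main fit, in either direction. The count was 2810 of 14004 without set 2 and 3547 of 14038 without set 4. It was 3799 of 14032 without set 3 and 4165 of 14008 without set 1.

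Markers of other cell types were set beside these differences on the same scale, for each gene whose differences could be recovered. The differences are those before the adjustment, and the control mean is that of all deposited control values. In sets 1 to 4 the median difference was 18.1%, 390%, 123% and 105% of the control mean over 12 myofibroblast markers, and in set 2 all 3 hypertensive-LVH libraries exceeded all 3 controls for each of the 12. Over 10 fibroblast markers it was -3.52%, 148%, 30.9% and 21.4%, and over 10 macrophage markers -8.33%, 136%, 93.4% and 22.9%. These 3 lists had their largest median in set 2 and their smallest in set 1, as the contractile genes had. The pericyte, endothelial and atrial markers given next shared this trait, so it was not particular to these 3 lists. The 10 pericyte markers gave -14.1%, 34.4%, -5.17% and -5.46%, and the 10 endothelial markers -13.0%, 19.2%, 6.03% and -9.20%. The 4 atrial markers gave -369%, 224%, 6.66% and -0.168%, with 4 of 4 lower in set 1 and 4 of 4 higher in set 2. The 5 epicardial markers gave -152%, -15.8%, 14.9% and -7.84%, with the largest median in set 3. Differences could be recovered for 7 of the 10 ventricular cardiomyocyte markers, and not for Actc1, Myl2 and Mb. The markers left out all fell by the adjusted P in limma on deposited values, with log2 fold changes of -0.30, -0.50 and -0.59. The medians of the 7 recovered markers therefore do not stand for the whole list. The 7 gave 7.68%, -15.1%, -4.39% and 0.309%, with the largest median in set 1 and the smallest in set 2. The deposited sum of the myofibroblast markers ran from 82.5 to 710.8 FPKM over the control and from 482.7 to 1974 FPKM over the hypertensive-LVH libraries, and that of the atrial markers from 2.82 to 3168 and from 5.71 to 2315 FPKM. No marker of these lists was at 0 in every library. The differences of these lists between sets were not tested, and neither was their part in the differences of the contractile genes.

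Individual libraries tended to be high or low for the set of genes together. Control library 2 was the highest control for 9 of the 10 genes, and control library 6 the lowest for 7. Among hypertensive-LVH libraries number 11 was among the top 3 for all 10 genes, number 6 was highest for 5, and number 12 was among the bottom 3 for 9. With the mean of each group in each set removed, Pearson r over the 24 libraries was above 0 for all 45 pairs of genes, from 0.327 to 0.932 with a median of 0.672. The highest r joined Tagln and Cnn1 at 0.932, followed by Cnn1 with Myl9 at 0.856. Acta2 stood farthest from the rest, with r from 0.327 with Cald1 to 0.6 with Smtn, while the 36 pairs without it had a median of 0.731. These correlations are a description, since the genes share the same libraries and the same adjustment.

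**Figure D3:**
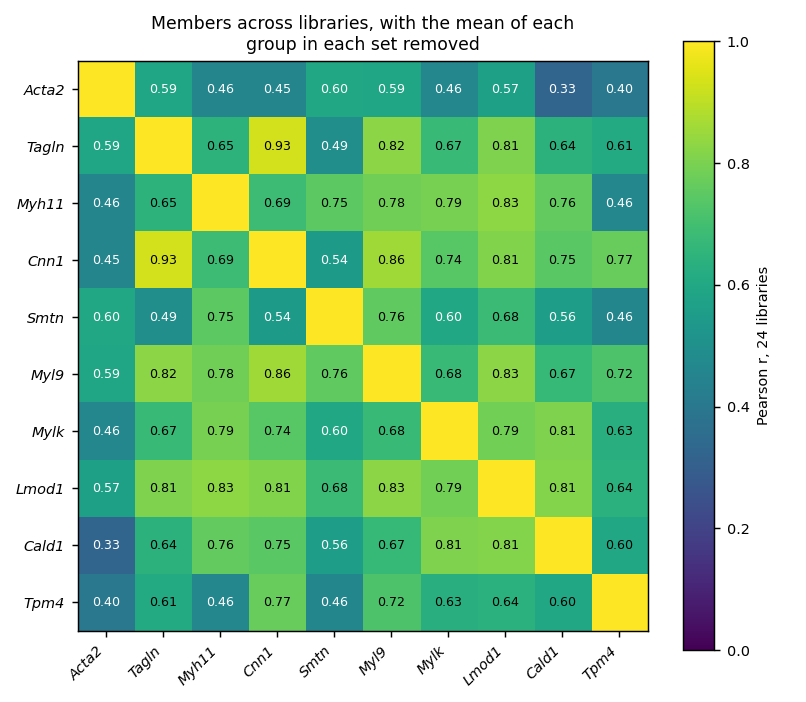
Pearson r between the 10 genes (both axes) over 24 libraries after the mean of each group in each set was removed, in colour from 0 to 1 with the value in each cell. All 45 pairs lie above 0, with Tagln and Cnn1 at 0.932 and the row of Acta2 at 0.327 to 0.6.

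Outside the 10 genes, the genes with a mean of at least 1 FPKM whose pattern over the 24 libraries was most like the mean z-score of the contractile genes, with the mean of each group in each set removed, were Susd2 (r = 0.945), Itgb4 (r = 0.918), Anpep (r = 0.916), Parva (r = 0.916) and Glis2 (r = 0.914). With the group means alone removed, r was 0.893 for Susd2, 0.917 for Itgb4, 0.81 for Anpep, 0.936 for Parva and 0.922 for Glis2, so the order of the 5 depends on this step. Parva encodes an actin-linked protein of focal adhesions, Itgb4 an integrin subunit and Anpep an aminopeptidase of the cell surface. Of these 5, Susd2 passed both criteria with a log2 fold change of 0.69 ± 0.18 (SE, limma, adjusted p = 0.00633). Parva at 0.27 ± 0.08 (adjusted p = 0.0097) and Glis2 at 0.40 ± 0.14 (adjusted p = 0.0294) passed the adjusted P of limma.

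The regulators of the contractile genes were taken next. Of 15 transcription factors and cofactors of smooth muscle genes, 2 rose and 1 fell by the adjusted P, against 20.9% and 12.6% of all genes tested. Klf4, a factor known to repress contractile genes when smooth muscle cells change state, had the largest log2 fold change at 0.46 ± 0.12 (SE, limma, adjusted p = 0.00444), with 12 of 12 hypertensive-LVH libraries above the control median. The smallest was that of Hey2, a target of Notch signalling, at -0.16 ± 0.09 (SE, limma, adjusted p = 0.156). Of the genes named after their values were seen, Mkl1, a myocardin-related cofactor of serum response factor, also rose, with 0.34 ± 0.09 (SE, limma, adjusted p = 0.00395) and 12 of 12 hypertensive-LVH libraries above the control median. The gene that fell was Foxo4, a forkhead factor, with -0.15 ± 0.04 (SE, limma, adjusted p = 0.00318). Myocd, the gene of myocardin, had 0.00 ± 0.11 (SE, limma, adjusted p = 0.993), and Srf, the gene of serum response factor, -0.03 ± 0.06 (SE, limma, adjusted p = 0.746).

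Of 27 enzymes, receptors and channels that control contraction, 7 rose and 3 fell by the adjusted P, against 20.9% and 12.6% of all genes tested. The median log2 fold change of the 27 was 0.10. Ednra, the endothelin receptor A of smooth muscle, had the largest at 0.49 ± 0.13 (SE, limma, adjusted p = 0.00502), with FPKM of 24.4 in hypertensive-LVH and 17.4 in control. Before the adjustment its difference was 62.5%, 45.1%, 67.7% and -31.9% of its control mean in sets 1 to 4, so it was lower in set 4. Adra1d, an alpha-1 adrenergic receptor of vessels, had the smallest at -0.69 ± 0.11 (SE, limma, adjusted p = 3.42e-05), and all 12 hypertensive-LVH libraries lay below the control median of its FPKM. Agtr1a, a receptor of ANG II that was named after its values were seen, fell as well, with -0.30 ± 0.07 (SE, limma, adjusted p = 0.00301) and 0 of 12 hypertensive-LVH libraries above the control median. Gucy1a1 and Gucy1b1 were not analysed here.

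Of 31 other actin, myosin light chain, tropomyosin and cytoskeletal genes, 20 rose, 8 of them by both criteria, and 1 fell, with a median log2 fold change of 0.30. Of all genes tested 20.9% rose and 12.6% fell by the adjusted P, and 4.52% rose by both criteria. Whether the share of this list differed from that of the contractile genes was not tested. Csrp2, a LIM protein of smooth muscle, had the largest log2 fold change at 1.40 ± 0.32 (SE, limma, adjusted p = 0.00178), with 44.3 against 18.2 FPKM and 12 of 12 hypertensive-LVH libraries above the control median. Lmod3, the leiomodin of striated muscle, had the smallest at -0.34 ± 0.10 (SE, limma, adjusted p = 0.00916), beside 0.27 ± 0.15 (SE, limma, adjusted p = 0.159) for its smooth muscle relative Lmod1.

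**Figure D4:**
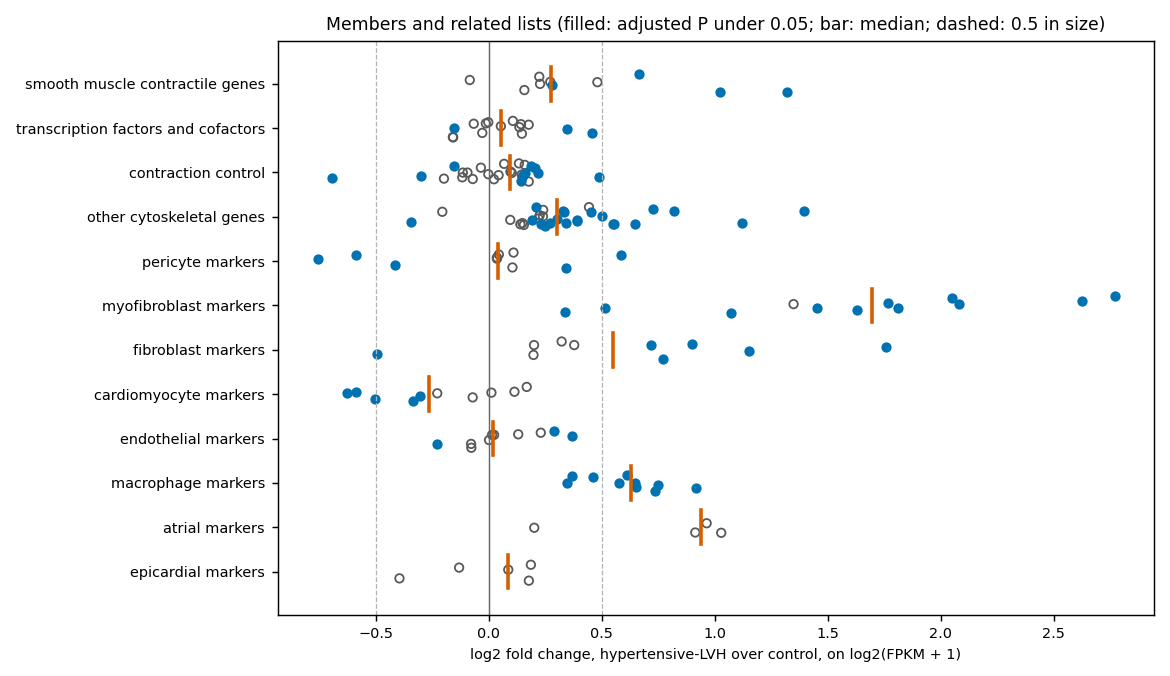
Log2 fold change of hypertensive-LVH over control (horizontal axis, log2(FPKM + 1) scale) for the 10 contractile genes and for genes of 11 related lists (rows), filled where the adjusted P passed and with an orange bar at the median. The contractile genes have a median of 0.28, and the myofibroblast markers, with a median of 1.70, lie farthest to the right.

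Markers of the cell types that could share these genes did not move as one. The counts below stand beside 20.9% of all genes tested that rose and 12.6% that fell by the adjusted P. By both criteria 4.52% of all genes tested rose. Among 10 pericyte markers 2 rose and 3 fell, from Mcam, an adhesion molecule of mural and endothelial cells, at 0.59 ± 0.11 (SE, limma, adjusted p = 2.86e-04) to Vtn at -0.76 ± 0.12 (SE, limma, adjusted p = 4.64e-05), and the median log2 fold change was 0.04. Among 12 myofibroblast markers 11 rose, 10 by both criteria, from Fap at 0.34 ± 0.09 (SE, limma, adjusted p = 0.00582) to Col1a1, a chain of collagen I, at 2.77 ± 0.88 (SE, limma, adjusted p = 0.0180). Of 10 fibroblast markers 5 rose and 1 fell, from Mfap5 at 1.76 ± 0.41 (SE, limma, adjusted p = 0.00210) to Gsn at -0.49 ± 0.09 (SE, limma, adjusted p = 3.02e-04). All 10 macrophage markers rose, with Cd68 at 0.92 ± 0.22 (SE, limma, adjusted p = 0.00290) and Adgre1 at 0.35 ± 0.12 (SE, limma, adjusted p = 0.0325) at the ends of their range. Of 10 endothelial markers 2 rose and 1 fell, from Pecam1 at 0.37 ± 0.08 (SE, limma, adjusted p = 7.77e-04) to Kdr at -0.23 ± 0.08 (SE, limma, adjusted p = 0.0309).

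Of 10 ventricular cardiomyocyte markers 0 rose and 5 fell, against 20.9% and 12.6% of all genes tested. The median log2 fold change of these markers was -0.27. Actn2, the sarcomeric alpha-actinin, had the largest at 0.17 ± 0.08 (SE, limma, adjusted p = 0.0917) and Tnni3, cardiac troponin I, the smallest at -0.63 ± 0.08 (SE, limma, adjusted p = 8.06e-06). None of 4 atrial and 5 epicardial markers passed, with Myl7 at 1.03 ± 1.40 (SE, limma, adjusted p = 0.593) and Nr2f2 at 0.20 ± 0.17 (adjusted p = 0.364) at the ends of the atrial range and Msln at 0.19 ± 0.34 (adjusted p = 0.692) and Upk3b at -0.39 ± 0.39 (adjusted p = 0.447) at those of the epicardial range, all in limma. The deposited sums of the atrial genes had the wide spread between libraries given above.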

How the data were processed

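RNA selected with oligo(dT) was sequenced by the authors, whose processing notes name Bowtie2, HISAT and RSEM without versions. Genome build, annotation, strand and depth were not given in the sources used here. The authors deposited 1 score per gene and library, and 2741 of these scores are below 0. Apart from 278 genes in whole hundredths, the score is an FPKM value shifted and scaled gene by gene in 4 sets. No source names this step. The genes and lists were chosen with earlier results of these data known.

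Values below 0 were set to 0, and log2(FPKM + 1) was fitted with limma 3.58.1 (R 4.3.3, intensity trend) for 14026 genes whose mean reached 0.1. This scale understates changes of low genes. Printed FPKM are as deposited. Differences before the adjustment were solved for a spacing of 0.01 FPKM, a tolerance of 1e-04 steps, a scale from 0.3 to 3.2 and 1 group difference for all sets (Python 3.11.15, numpy 2.4.6). This was done for the contractile genes and the lists of related genes and markers, an alternative chosen after the data were seen. Scripts were tested on simulated data.

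Named genes were the 10 contractile genes, those with the largest and smallest log2 fold change of each list, and the 5 genes most like the contractile genes. Pcsk7 was named for its overlap with Tagln, and Mkl1, Foxo4, Myocd, Srf and Agtr1a after their values were seen. Actc1, Myl2 and Mb were named because their differences before the adjustment could not be recovered. Alternatives changed the pseudocount to 0.1, the minimum mean to none or 1, the scaling, the trend, a term for set or replicate number, and the libraries or sets left in. Positions are from GENCODE vM21 (GRCm38).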

Additional observations from a re-analysis of the deposited data

Results flagged for a closer look

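The difference of Tagln between hypertensive-LVH and control varied between the 4 sets of libraries, by a limma test of the group by set interaction with an adjusted p of 0.01314. On log2(FPKM + 1) the difference was -0.35 in set 1, 4.42 in set 2, 0.48 in set 3 and 0.74 in set 4. The value of set 2 depends on the 1 added before the logarithm, since a control library of that set is below 0 and another is at 0.675 FPKM.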

How the results depend on the processing

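In the main fit 3 of the contractile genes passed both criteria and 4 the adjusted P. Leaving out 1 library at a time gave 2 to 4 by both criteria and 2 to 5 by the adjusted P, and 0 fell in each of these fits. Over all genes these fits gave 540 to 738 higher calls by both criteria, against 634 in the main fit. By both criteria 1 passed without set 2 and 1 without set 4, and by the adjusted P 1 without set 2, 1 without set 4 and 2 without set 3. Over all genes 323 passed both criteria in the higher direction without set 2 and 742 without set 4. Myh11 reversed to -0.07023 without set 2. The interaction passed for 2 genes, Tagln and Cnn1, with 0.1 added before the logarithm and with a mean of at least 1 FPKM, in place of 1. The cause of these shifts was not tested. Tagln missed the threshold with 0.1 added (adjusted p = 0.0733) and with the set as a term (0.0522) in limma. Across median-ratio scaling and quantile normalization, which moved the median of all genes from 0.05 to 0.02 and -0.02, 3 and 4 genes were again called.

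The same numbers in both groups were not shown to pair the libraries. The correlation of deviations of same-numbered libraries ran from -0.557 to -0.00109, with 0 of 12 over 0.1 and 0 best with its own number. Same-numbered libraries lie in the same set, and the adjustment of the set can push their correlation below 0. This check therefore cannot decide on a pairing. With the number as a replicate block 1 gene passed both criteria (Tpm4) and 2 the adjusted P (Tpm4 and Cald1), with adjusted p in limma of 0.112 for Tagln and 0.0737 for Cnn1. Over all genes 2824 passed the adjusted P with this block, against 4697 in the main fit. Without counts, the depth is unknown, and it is not known how far low genes such as Lmod1 and Cnn1 are limited by it.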
